A study of Mus musculus with 6 samples.

Results

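Cells expressing the fusion protein TAZ-CAMTA1 (TC) were compared with empty vector (EV) cells across the transcriptome. All 6 libraries of the series entered the comparison, taken by their labels. The 4 TC-expressing libraries stood on one side and the 2 EV libraries on the other. Of the 4, 1 was treated with vehicle (TC) and 3 with ATA (TC + ATA). A gene counted here as changed had the same direction with vehicle and with ATA. The size could differ between the treatments, and the 3 TC + ATA libraries weigh most in the fitted value. The cells were NIH3T3, an immortalized line of mouse embryonic fibroblasts. EV cells carried the empty vector and received DMSO, TC cells expressed the fusion stably and received DMSO, and TC + ATA cells expressed it and received 10 μM aurintricarboxylic acid (ATA) for 48 h. The sample records give a time of 48 h and a seeding time of 16 h for every library. The sources do not give the promoter that drove the fusion, the number of clones or whether libraries came from separate cultures, so p-values measure the spread between these libraries, which may be technical. No EV library received ATA.

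TAZ, encoded by Wwtr1, is a transcriptional coactivator of the Hippo pathway. When the kinases MST and LATS are active, TAZ and its paralog YAP are phosphorylated and held in the cytoplasm. When they are not, both enter the nucleus and bind the TEAD factors, which carry the DNA contact. TEAD targets include secreted matricellular proteins, cytoskeletal adaptors and inhibitors of the pathway itself. In epithelioid hemangioendothelioma, a vascular sarcoma, a translocation joins the TEAD-binding end of TAZ to the CAMTA1 transcription factor, and the fusion stays in the nucleus. Fibroblasts normally build collagen-rich matrix, attach through integrins and lack the tight junctions and polarity complexes of epithelia.

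The libraries held 58471484 to 74413193 counts, with a median of 71053010, and 17474 genes were tested. Values are CPM, the counts of a gene relative to the total over tested genes in its library, after TMM normalization. The EV libraries differed from each other more than the TC + ATA libraries did: the chi-square statistic of the counts per degree of freedom was 61.3 for the EV pair, 5.86 to 6.61 for pairs of TC + ATA libraries, 22.8 to 24.7 for TC against TC + ATA, and 220 to 263 for EV against TC-expressing libraries. Mitochondrial transcripts took 1.15% and 1.60% of counts in EV and 1.72% to 2.11% in the TC-expressing libraries. Fibroblast genes were abundant throughout, with Col1a2 between 5127 and 7231 CPM and Vim between 2789 and 4845 CPM. The epithelial markers Epcam, Krt18, Esrp1 and Grhl2 lay at or below 0.0720 CPM in every library, and the leukocyte markers Spi1 and Tyrobp at or below 0.123 CPM. The leukocyte marker Ptprc (CD45) was read at 3.16 and 2.87 CPM in EV, 2.23 CPM in TC and 0.282, 5.33 and 4.22 CPM in TC + ATA, uneven among the TC + ATA libraries and not called, and the CSF1 receptor Csf1r fell from 3.16 and 2.77 CPM in EV to 0.847–1.73 CPM. Of the endothelial markers, Pecam1, Cdh5, Tek, Erg and Vwf stayed below 1.5 CPM and were not called. The VEGF receptor Kdr rose from 0.294 and 0.367 CPM in EV to 0.593–0.863 CPM, and over the list of endothelial markers 4 of 18 tested members were higher and none lower (2 higher without EV replicate 1), close to the 19.0% of all genes that were higher by the rule given below. Of the leukocyte markers 2 of 10 were higher and 1 lower, Csf1r. Of the skeletal muscle markers 2 of 18 were higher and 1 lower, with 8 higher and 2 lower without the TC library, 4 higher without EV replicate 1, and 1 higher without EV replicate 2, TC + ATA replicate 1 or TC + ATA replicate 3. These are bulk RNA samples, in which fewer cells of a kind and less RNA per cell cannot be told apart.

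Reads assigned to the mouse gene Wwtr1 came to 110.04 and 104 CPM in EV, 139 CPM in TC and 132, 129 and 132 CPM in TC + ATA, and Camta1 to 18.9 and 15.4 CPM in EV, 19.2 CPM in TC and 18.4, 18.8 and 18.8 CPM in TC + ATA. Wwtr1 rose by a log2 fold change of 0.31 (SE 0.06), whereas Camta1 was at 0.13 and was not called (0.27, adjusted p = 0.0366 from edgeR, without EV replicate 1). The counts give no separate value for the introduced fusion, so they check the labels only weakly.

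The change was broad, nearly even in direction for small effects and mostly upward for large ones. Lists of tight junction and polarity genes, integrins, focal adhesion components and glutathione enzymes held many more increases than decreases. The laminin list held 10 increases and 5 decreases, and the collagen-processing list 12 and 4. The list of cholesterol synthesis held mostly decreases. The single genes that moved furthest included the fructose transporter Slc2a5 and the tight junction protein Cgn upward, and the cysteine dioxygenase Cdo1 and the angiotensin receptor Agtr2 downward. A gene was called when edgeR's quasi-likelihood test gave an adjusted p of at most 0.05 and all 4 TC-expressing libraries lay beyond both EV libraries. By this rule 3328 genes (19.0% of those tested) were higher and 3483 (19.9%) lower. These shares are the background for every count of list members given here. A log2 fold change of at least 2 in addition left 511 genes (2.92%) higher and 188 (1.08%) lower. The median log2 fold change of all tested genes was −0.014, with quartiles of −0.31 and 0.35.

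The 511 large increases mostly began from very little RNA. Their median was 0.092 CPM in EV and 0.948 CPM in TC-expressing cells, and 391 of them are annotated as protein coding. The 188 large decreases began from a median of 2.15 CPM and ended at 0.401 CPM, and 139 are protein coding. Both states of treatment were measured against the same EV libraries. The large increases had a median log2 fold change of 3.00 with vehicle and 2.99 with ATA, and the large decreases one of −2.71 and −2.42. Of the 511 increases, 406 had an adjusted p of at most 0.05 in each of these comparisons, as did 137 of the 188 decreases (edgeR). Between TC + ATA and TC, 8 of the increases and 8 of the decreases were called by edgeR, which takes the spread of the single TC library from the EV and TC + ATA libraries, so that treatment and that library cannot be told apart. The limit of 2 fell between Adam33 (2.00) and Rgs16 (2.01) just inside and Kcnj15 (1.9977) just outside, and for decreases between 1700018A04Rik (−2.0002) and Cela1 (−1.9969).

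**Figure D1:**
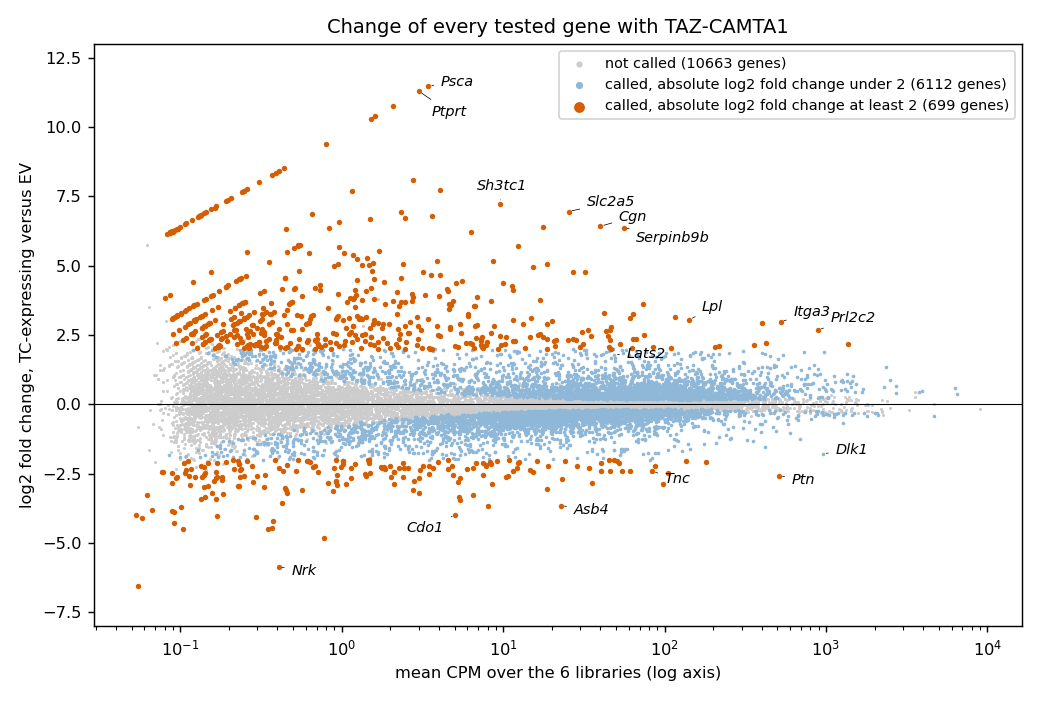
Log2 fold change of TC-expressing versus EV cells against the mean CPM over the 6 libraries (log axis), with 1 point per tested gene. Genes with a large change (orange, absolute log2 fold change of at least 2) run to 11.49 upward for Psca and to −5.86 for Nrk among the labelled genes, and the straight diagonal rows of points are genes with 0 counts in EV, whose fitted value depends on the prior count.

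Among called genes with a mean of at least 5 CPM, the largest increases were in genes that EV cells hardly used. A gene that rose far passes this limit through its TC-expressing values. Slc2a5, which encodes the fructose transporter GLUT5 (GRCm38 chromosome 4, 150119283 to 150144169), was read at 0.294 and 0.315 CPM in EV, 40.8 CPM in TC and 38.8, 35.3 and 36.97 CPM in TC + ATA. The 4 TC-expressing values lay close together and far above both EV values (log2 fold change 6.95, SE 0.14, adjusted p = 1.81e-09 from edgeR). Cgn (chromosome 3, 94760069 to 94786492), which encodes cingulin, a scaffold on the cytoplasmic face of tight junctions, was read at 0.600 and 0.787 CPM in EV, 66.8 CPM in TC and 58.3, 53.8 and 59.9 CPM in TC + ATA (log2 fold change 6.42, SE 0.15, adjusted p = 3.21e-09 from edgeR). Serpinb9b (chromosome 13, 33027416 to 33041884), an intracellular serpin, was read at 1.17 and 0.826 CPM in EV, 75.7 CPM in TC and 89.6, 85.2 and 81.6 CPM in TC + ATA (log2 fold change 6.37, SE 0.15). Groups cannot overlap in a called gene, so their separation here follows from the rule. Sh3tc1 had the largest log2 fold change of these genes, 7.24, and its EV side rested on 2 and 12 counts, so the value ran from 6.48 to 8.97 as single libraries were left out.

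The others named of the 15 largest increases had diverse functions. Pdzd2, a PDZ domain protein, rose from 0.294 and 0.328 CPM in EV to 23.3–28.7 CPM. Atp6v0a4, a proton pump subunit of specialised acid-secreting epithelia, rose from 0.173 and 0.0787 CPM in EV to 8.24–11.5 CPM. Vnn1, the pantetheinase vanin 1, rose from 0.387 and 0.315 CPM in EV to 15.4–20.8 CPM. Lysozyme (Lyz2), typical of myeloid cells, rose from 0.494 and 0.249 CPM in EV to 5.66–9.595 CPM, in libraries where Spi1 and Tyrobp were near 0 and Ptprc and Csf1r were read at the levels given above; the part of such cells in this value was not tested. Cytoskeletal genes in the group were rhophilin 2, Rhpn2 (from 0.640 and 0.826 CPM in EV to 20.3–24.7 CPM) and Synpo2l, an actin-associated protein of striated muscle (from 1.76 and 1.705 CPM in EV to 43.2–52.8 CPM). Plscr2 (a phospholipid scramblase), Ms4a4d, Ppef1 and 2210011C24Rik were also in the group, with log2 fold changes of 4.77, 5.05, 4.38 and 4.39. Single libraries moved some of these values: the log2 fold change of Atp6v0a4 was 6.86 without EV replicate 1.

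**Figure D2:**
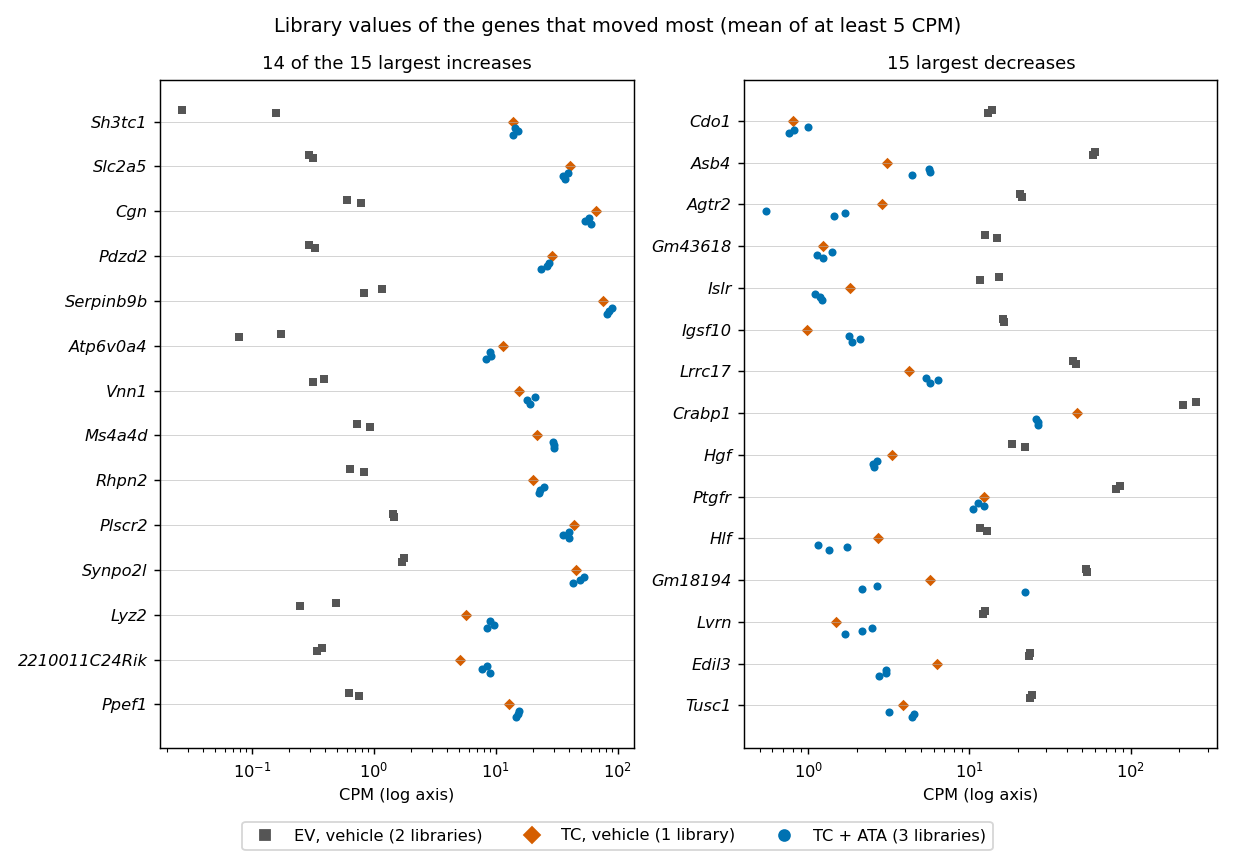
CPM (log axis) in each library for 14 of the 15 largest increases (left) and the 15 largest decreases (right) among called genes with a mean of at least 5 CPM, with squares for EV, diamonds for TC and circles for TC + ATA. In every row the EV squares stand apart from the diamond and circles, as the rule for calling a gene requires. Gm18194 shows 1 TC + ATA library, at 22.2 CPM, away from the other TC-expressing values of 2.14 to 5.72 CPM.

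Promoters are shown for those of the 15 largest increases that hold the TEAD-binding letters GGAATG. RefSeq entries on GRCm38.p6, from 250 bases before to 50 bases after the start, were at hand for 11 of the 15 genes, and 4 of these hold GGAATG or its reverse complement CATTCC. In the table of promoters as a whole, with no chromosome left out, 16.6% of 27025 genes hold these letters in an entry of 300 bases. Capitals mark the match, and each sequence runs 5′ to 3′ in the direction of transcription.
Sh3tc1 (chr5:35739938-35740237, minus strand): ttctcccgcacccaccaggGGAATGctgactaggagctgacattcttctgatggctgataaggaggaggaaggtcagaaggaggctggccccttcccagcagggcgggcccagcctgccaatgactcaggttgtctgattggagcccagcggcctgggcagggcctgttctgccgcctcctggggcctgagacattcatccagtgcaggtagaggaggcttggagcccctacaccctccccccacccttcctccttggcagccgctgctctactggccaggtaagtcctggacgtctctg
Pdzd2 (chr15:12739843-12740142, minus strand): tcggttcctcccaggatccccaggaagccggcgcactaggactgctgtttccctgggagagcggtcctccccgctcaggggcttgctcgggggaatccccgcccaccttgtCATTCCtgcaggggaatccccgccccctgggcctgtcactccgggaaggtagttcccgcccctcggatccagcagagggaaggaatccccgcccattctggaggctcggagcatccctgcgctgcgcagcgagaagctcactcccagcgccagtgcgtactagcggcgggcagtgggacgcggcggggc
Atp6v0a4 (chr6:38124537-38124836, minus strand): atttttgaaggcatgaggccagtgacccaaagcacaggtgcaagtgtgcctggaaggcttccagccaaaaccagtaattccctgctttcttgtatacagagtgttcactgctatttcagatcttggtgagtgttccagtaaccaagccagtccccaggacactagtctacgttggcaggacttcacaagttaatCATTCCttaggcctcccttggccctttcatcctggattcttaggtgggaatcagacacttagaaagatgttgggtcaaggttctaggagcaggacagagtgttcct
Ms4a4d (chr19:11536544-11536843, plus strand): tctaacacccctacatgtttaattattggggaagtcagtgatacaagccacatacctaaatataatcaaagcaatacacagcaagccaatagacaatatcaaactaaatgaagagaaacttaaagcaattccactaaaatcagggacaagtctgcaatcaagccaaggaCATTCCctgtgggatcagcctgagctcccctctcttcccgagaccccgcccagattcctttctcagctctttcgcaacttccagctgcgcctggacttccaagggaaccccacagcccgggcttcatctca
The matches begin 231, 139, 56 and 81 bases before the start of Sh3tc1, Pdzd2, Atp6v0a4 and Ms4a4d. A match is a description of letters and not a binding site. Entries were at hand for 60.9% of the large increases, 62.2% of the large decreases and 65.0% of all tested genes. With under 80% covered, a comparison of motif shares between these groups would be void and is not given.

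The largest decreases at a mean of at least 5 CPM began from moderate levels in EV fibroblasts. The limit itself sets this, because a gene that fell far can pass it only through its EV values. Cdo1, cysteine dioxygenase, was read at 13.9 and 13.1 CPM in EV, 0.806 CPM in TC and 1.004, 0.818 and 0.764 CPM in TC + ATA (log2 fold change −3.99, SE 0.14, adjusted p = 2.9e-08 from edgeR). Asb4, which encodes an ankyrin repeat protein of a ubiquitin ligase and is maternally expressed in the mouse, was read at 60.1 and 58.1 CPM in EV, 3.08 CPM in TC and 5.64, 5.71 and 4.39 CPM in TC + ATA (log2 fold change −3.65). The TC library was the lowest of the 4, and all were far below EV. Agtr2, the type 2 receptor of angiotensin II, fell from 20.6 and 21.1 CPM in EV to 0.546–2.85 CPM. Islr, a marker of mesenchymal stromal cells, fell from 15.3 and 11.6 CPM in EV to 1.11–1.81 CPM, and the secreted leucine-rich protein Lrrc17 fell from 44.1 and 45.8 CPM in EV to 4.23–6.39 CPM. Crabp1, the cytosolic carrier of retinoic acid, was more abundant and fell from 254 and 209.97 CPM in EV to 25.7–46.3 CPM. Igsf10 had a log2 fold change of −3.27, and genes on the opposite strand overlap 19.8% of its exonic bases. The counting is not stated to have used strand. Hlf, a bZIP transcription factor, the aminopeptidase Lvrn and Tusc1 fell by 2.81, 2.66 and 2.59 on the log2 scale.

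Some genes were read almost only in TC-expressing cells. In 22 genes, 14 of them protein coding, each EV library held at most 3 counts and each TC-expressing library at least 30. Spo11, the nuclease that starts meiotic recombination, had 2 and 2 counts in EV and 560, 320.0, 365 and 369 in the TC-expressing libraries, at least 118.6-fold higher when each EV library is set to 3 counts, relative to raw library totals without TMM, as for the other bounds given here. Psca (prostate stem cell antigen, a GPI-anchored surface protein) had 0 counts in both EV libraries and 241 to 384 in the others, at least 78.9-fold. Ptprt, a receptor tyrosine phosphatase, also had 0 counts in EV and 259 to 334 in the others, at least 93.6-fold. Selp, the adhesion molecule P-selectin of platelets and endothelium, had 2 and 0 counts against 232 to 340.0, at least 84.2-fold, and an opposite-strand gene overlaps 14.1% of its exonic bases. Cyp1a1, a xenobiotic-metabolising target of the aryl hydrocarbon receptor, had 2 and 3 counts against 153 to 289, at least 50.1-fold. In the other direction the rule found 1 gene, the kinase Nrk on the X chromosome, with 92 and 87 counts in EV and 2, 0, 3 and 0 in TC-expressing libraries, at least 24.1-fold lower. Single libraries moved some of these values: the log2 fold change of Selp was 11.15 without EV replicate 1 and 7.19 without EV replicate 2, and the log2 fold change of Nrk was −6.63 without TC + ATA replicate 2.

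Hippo pathway genes were mostly higher. In a list of 22 reported YAP/TAZ targets, 17 were higher and 1 was lower, against 19.0% and 19.9% of all genes, with a median log2 fold change of 0.75. The summed level of the list was 3065 and 3085 CPM in EV and 5309 to 5550.0 CPM in the TC-expressing libraries. Among the members with the largest changes, the pathway kinase Lats2 rose from 17.7 and 19.1 CPM in EV to 63.3–64.03 CPM, the LIM protein Ajuba from 70.9 and 72.1 CPM in EV to 214–231 CPM, and the phosphatase Ptpn14 from 108 and 107 CPM in EV to 224–236 CPM. Another gene on the same strand overlaps part of Lats2, so its reads can be shared. The secreted Ccn1 rose from 275 and 332 CPM in EV to 736–779.5 CPM. Of the other known targets, Amotl2, Ccn2 and Ankrd1 rose by 0.82, 0.57 and 0.43 on the log2 scale, less than Ccn1 at 1.33, and Foxf2 was the member that fell (log2 fold change −0.87). None of these genes reached a log2 fold change of 2. Among 28 Hippo kinases and scaffolds, 18 were higher and 4 lower, including the LIM protein Wtip (from 54.99 and 54.9 CPM in EV to 195–211 CPM) and Rassf5 (from 7.92 and 7.28 CPM in EV to 20.01–24.6 CPM). Of the DNA-binding partners, Tead1 and Tead4 rose by 1.31 and 1.11 on the log2 scale, Tead2 and Tead3 fell by 0.60 and 0.58, and the TEAD-binding cofactors Vgll3 and Vgll4 rose by 1.04 and 1.28. Yap1 was at 0.08 and was not called.

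**Figure D3:**
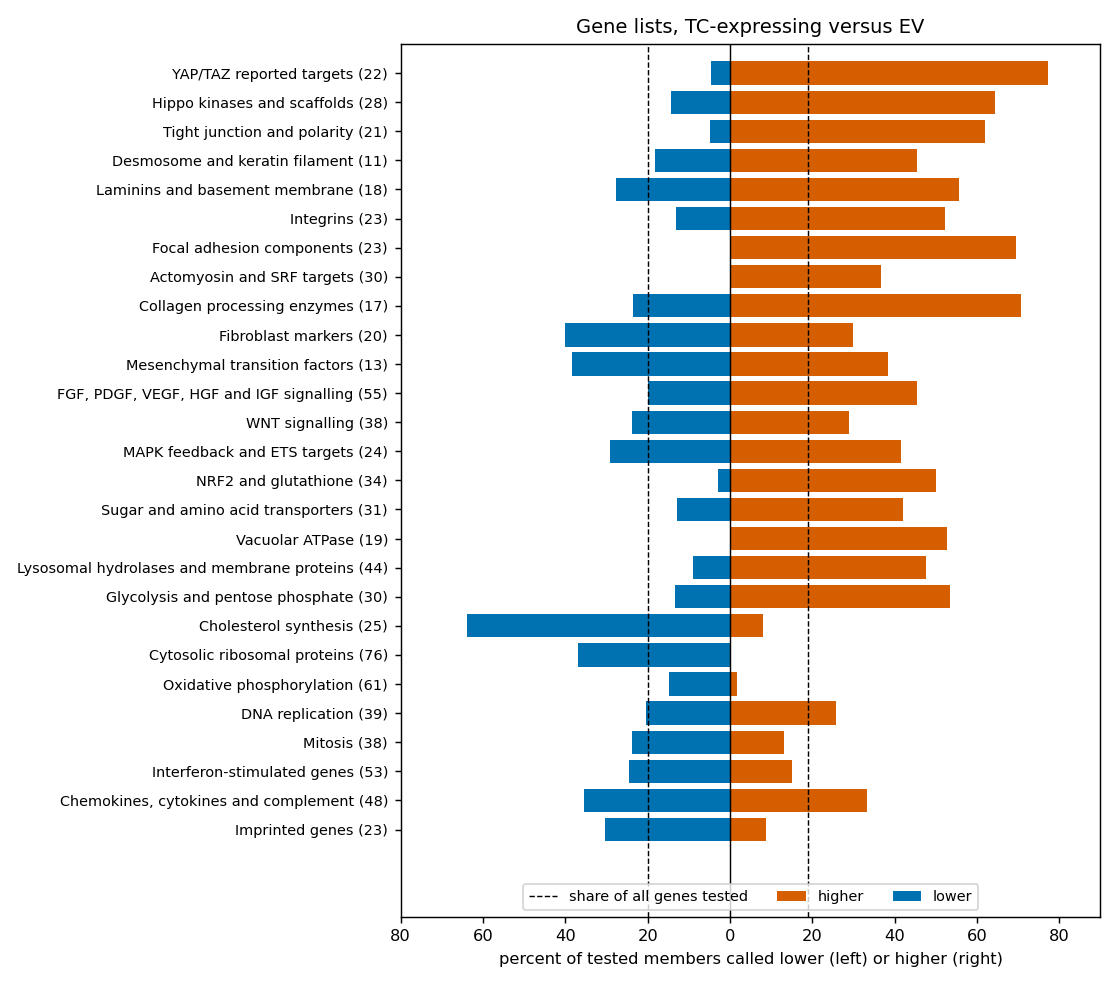
Percent of tested members called higher (orange, right) or lower (blue, left) in TC-expressing versus EV cells for 27 of the gene lists, with the number of tested members in brackets and the share of all tested genes as dashed lines (19.0% and 19.9%). The YAP/TAZ target, collagen-processing and focal adhesion lists reach furthest to the right, and cholesterol synthesis reaches furthest to the left, with 16 of 25 members lower.

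Tight junction and polarity genes seal and orient epithelial sheets. Of 36 listed genes, 21 had enough reads to be tested, and a gene near 0 in EV can enter only through its TC-expressing libraries. Of the 21 tested members, 13 were higher and 1 lower, with a median log2 fold change of 1.12, and 5 of the increases were large. With at least 5 CPM required in 1 library, 14 were tested, 9 were higher and 1 lower, and the median was 0.86. Besides Cgn, the polarity adaptor Pard6b rose from 20.5 and 22.1 CPM in EV to 55.9–77.3 CPM. Cldn9, a claudin strand protein, was read at 0.427 and 0.0656 CPM in EV, 3.05 CPM in TC and 3.96, 4.13 and 4.61 CPM in TC + ATA (log2 fold change 3.996, SE 0.48). Crb3, a transmembrane organiser of apical polarity, had 0 counts in both EV libraries and 0.115 to 0.247 CPM in the others. The summed level of the list was 520.5 and 529 CPM in EV and 894 to 995 CPM in the TC-expressing libraries. Of the epithelial marker list, only 9 of 20 members had enough reads to be tested, and 3 were called higher (1 without TC + ATA replicate 3): Krt7 (from 1.01 and 1.53 CPM in EV to 6.54–9.77 CPM), Krt14 (from 1.96 and 1.19 CPM in EV to 2.26–3.46 CPM) and, near the floor, Cdh1 (E-cadherin, at most 0.245 CPM). The keratins Krt13 and Krt80, of stratified epithelia, rose from 0.667 and 0.708 CPM in EV to 7.32–11.3 CPM and from 6.898 and 6.88 CPM in EV to 31.3–40.7 CPM. The desmosomal plakophilins Pkp2 and Pkp4 rose from 10.4 and 10.1 CPM in EV to 30.8–34.4 CPM and from 52.9 and 59.9 CPM in EV to 127–146 CPM, and Cdsn, corneodesmosin, rose from 10.2 and 8.79 CPM in EV to 54.6–67.3 CPM. The genes named here all rose, but the list of desmosome and keratin filament genes moved in both directions. Of its 11 tested members 5 were higher (2 large) and 2 lower (1 large). Single libraries moved some of these values: the log2 fold change of Cldn9 was 5.86 without EV replicate 1 and 3.20 without EV replicate 2, and the log2 fold change of Krt14 was 0.54 without EV replicate 2 and 0.77 without TC replicate 1 and 0.75 without TC + ATA replicate 3, and the log2 fold change of Cdh1 was 1.68 without EV replicate 1 and 6.59 without EV replicate 2. Krt14 was not called without EV replicate 2, or without TC replicate 1, or without TC + ATA replicate 3. Cdh1 was not called without EV replicate 1.

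Laminins are the cell-binding trimers of basement membranes. Of 18 tested laminin and basement membrane genes, 10 were higher (5 of them large) and 5 lower (2 large), and their summed level was 1628 and 1488 CPM in EV and 3443 to 3822 CPM in the TC-expressing libraries. Lama5, a laminin α chain of epithelial and endothelial basement membranes, was read at 2.76 and 2.56 CPM in EV, 13.6 CPM in TC and 15.3, 14.01 and 14.4 CPM in TC + ATA (log2 fold change 2.43, SE 0.11, adjusted p = 1.31e-07 from edgeR). Lamc1 and Lamb3 rose from 256 and 215 CPM in EV to 571–651 CPM and from 0.294 and 0.223 CPM in EV to 1.25–1.89 CPM, in that order. Type IV collagen followed, with Col4a1 rising from 239 and 217 CPM in EV to 536–587 CPM and Col4a2 from 155 and 128 CPM in EV to 313–338 CPM, as did the anchoring fibril collagen Col7a1 (from 6.097 and 9.82 CPM in EV to 24.9–31.3 CPM). Smoc2, a secreted calcium-binding matrix protein, moved the other way, at 116 and 122 CPM in EV, 12.97 CPM in TC and 27.1, 25.8 and 24.1 CPM in TC + ATA, and the TC library was lower than the 3 TC + ATA libraries.

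Among 23 tested integrin genes, 12 were higher and 3 lower, with a median log2 fold change of 0.45 (0.82 without EV replicate 1 and 0.68 without EV replicate 2), and the summed level was 1267 and 1207 CPM in EV and 2616 to 2844 CPM in the TC-expressing libraries. Several of those that rose form laminin receptors with β1: Itga3 was read at 98.5 and 88.6 CPM in EV, 789.8 CPM in TC and 748, 711 and 699.6 CPM in TC + ATA (log2 fold change 2.98, SE 0.09, adjusted p = 1.62e-08 from edgeR), and Itga7 and Itga6 rose from 6.04 and 5.59 CPM in EV to 26.1–32.5 CPM and from 77.8 and 84.4 CPM in EV to 264–326 CPM. Itgb1, their common partner, rose from 650.2 and 624 CPM in EV to 1125–1186 CPM. Itga1, a collagen receptor, rose from 0.640 and 0.524 CPM in EV to 2.65–5.69 CPM. Of 23 focal adhesion components, 16 were higher and none lower, with a median log2 fold change of 0.45. Parvb and Parva, which link integrin-linked kinase to actin, rose from 38.9 and 33.1 CPM in EV to 86.3–106 CPM and from 246 and 215 CPM in EV to 427–447 CPM. In the actomyosin list 11 of 30 members were higher and none lower, and the median log2 fold change against EV was 0.11 with vehicle and 0.35 with ATA. Without EV replicate 2, 1 member of the focal adhesion list and 1 of the actomyosin list were lower. Myh9, the heavy chain of non-muscle myosin IIA, rose from 673 and 635 CPM in EV to 1223–1513 CPM, and the calponin Cnn2 rose from 459.8 and 418 CPM in EV to 897–946 CPM. Acta2 (smooth muscle actin) was read at 459 and 345 CPM in EV, 619.7 CPM in TC and 1243, 1230.2 and 1183 CPM in TC + ATA, so that the TC library lay between EV and the TC + ATA libraries (TC + ATA versus TC, adjusted p = 0.0345 from edgeR, with the spread of the lone TC library taken from the other groups, so that treatment and that library cannot be told apart).

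**Figure D4:**
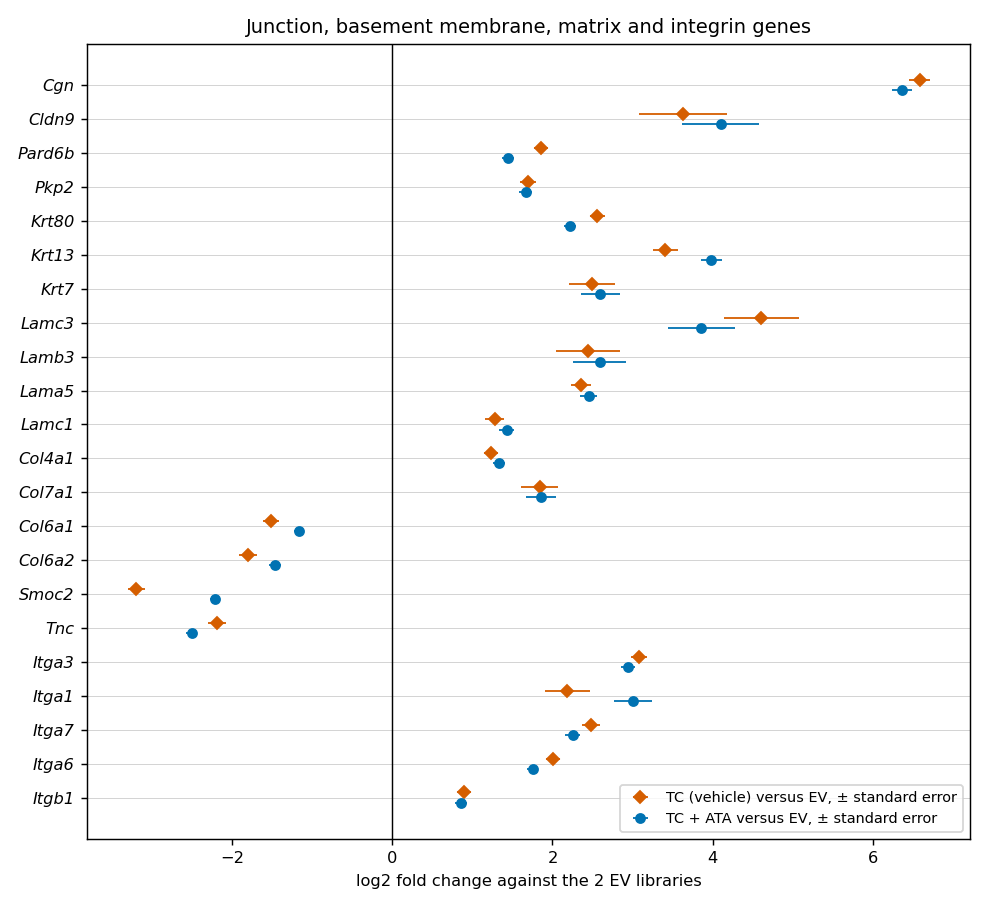
Log2 fold change against the 2 EV libraries for 22 junction, basement membrane, matrix and integrin genes, in TC (diamonds) and in TC + ATA (circles), with standard errors as bars. Both comparisons share the EV libraries. All 22 genes lie on the same side of 0 with vehicle and with ATA, as the rule for calling a gene requires. Smoc2 lies at −3.20 with vehicle and −2.22 with ATA.

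Other matrix genes moved in both directions. Chains of collagen VI differed. Col6a1 fell from 1151 and 1106 CPM in EV to 395–516 CPM and Col6a2 from 788 and 693 CPM in EV to 212–274 CPM. Col6a4 was called higher by a log2 fold change of at least 2. Among the fibrillar and associated collagens 5 of 15 were higher and 5 lower. Tenascin C (Tnc), a matrix protein of wounds and tumours, was read at 189.7 and 176 CPM in EV, 40.1 CPM in TC and 31.5, 34.6 and 30.4 CPM in TC + ATA (log2 fold change −2.42, SE 0.10), whereas its paralog Tnxb rose from 9.299 and 10.5 CPM in EV to 47.03–75.04 CPM. Sparc, a collagen-binding glycoprotein and among the largest rises in absolute level, rose from 1223 and 1075 CPM in EV to 2654–3048 CPM. The microfibril protein Mfap5 was read at 8.69 and 8.58 CPM in EV, 105 CPM in TC and 109.5, 103 and 105 CPM in TC + ATA (log2 fold change 3.61, SE 0.07, adjusted p = 1.81e-09 from edgeR). The elastic fibre protein Fbln1 and the small proteoglycan Ogn rose from 3.75 and 2.78 CPM in EV to 13.6–18.8 CPM and from 109 and 112 CPM in EV to 410.1–520.4 CPM, and Dcn, decorin, fell from 19.5 and 21.9 CPM in EV to 4.91–6.38 CPM. Of 17 collagen-processing enzymes, 12 were higher and 4 lower; the crosslinking oxidases Loxl4 and Loxl3 rose from 31.6 and 35.4 CPM in EV to 113–134 CPM and from 104 and 103 CPM in EV to 196–210.2 CPM, and the procollagen N-proteinase Adamts2 fell from 131 and 135 CPM in EV to 51.02–71.1 CPM. In the protease list 7 of 28 were higher and 12 lower, including a fall of the gelatinase Mmp9 (from 4.95 and 5.01 CPM in EV to 0.599–0.749 CPM), while the urokinase receptor Plaur rose from 59.2 and 51.8 CPM in EV to 176–204 CPM.

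Genes that mark the fibroblast state did not move as a unit. Of 20 tested fibroblast markers, 6 were higher and 8 lower, and the median log2 fold change was 0.14 with all libraries and −0.31 with the vehicle libraries only. The PDGF receptor Pdgfra fell from 403 and 422 CPM in EV to 175–179.98 CPM, the surface glycoprotein Thy1 from 203 and 183 CPM in EV to 69.6–86.03 CPM and the homeobox factor Prrx1 from 575 and 604 CPM in EV to 263–310.3 CPM. Col1a1, Col1a2 and Vim rose modestly, by 0.45, 0.38 and 0.49 on the log2 scale. Ly6a (Sca-1) was read at 11.1 and 8.69 CPM in EV, 40.8 CPM in TC and 102, 106 and 97.9 CPM in TC + ATA, with the TC library between EV and TC + ATA, and reads of Ly6 family genes can be shared between near-identical copies. Snai2 (Slug), a transcription factor of mesenchymal transition, fell from 36.04 and 40.6 CPM in EV to 13.7–16.04 CPM, in a list with 5 members higher and 5 lower of 13 tested.

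**Figure D5:**
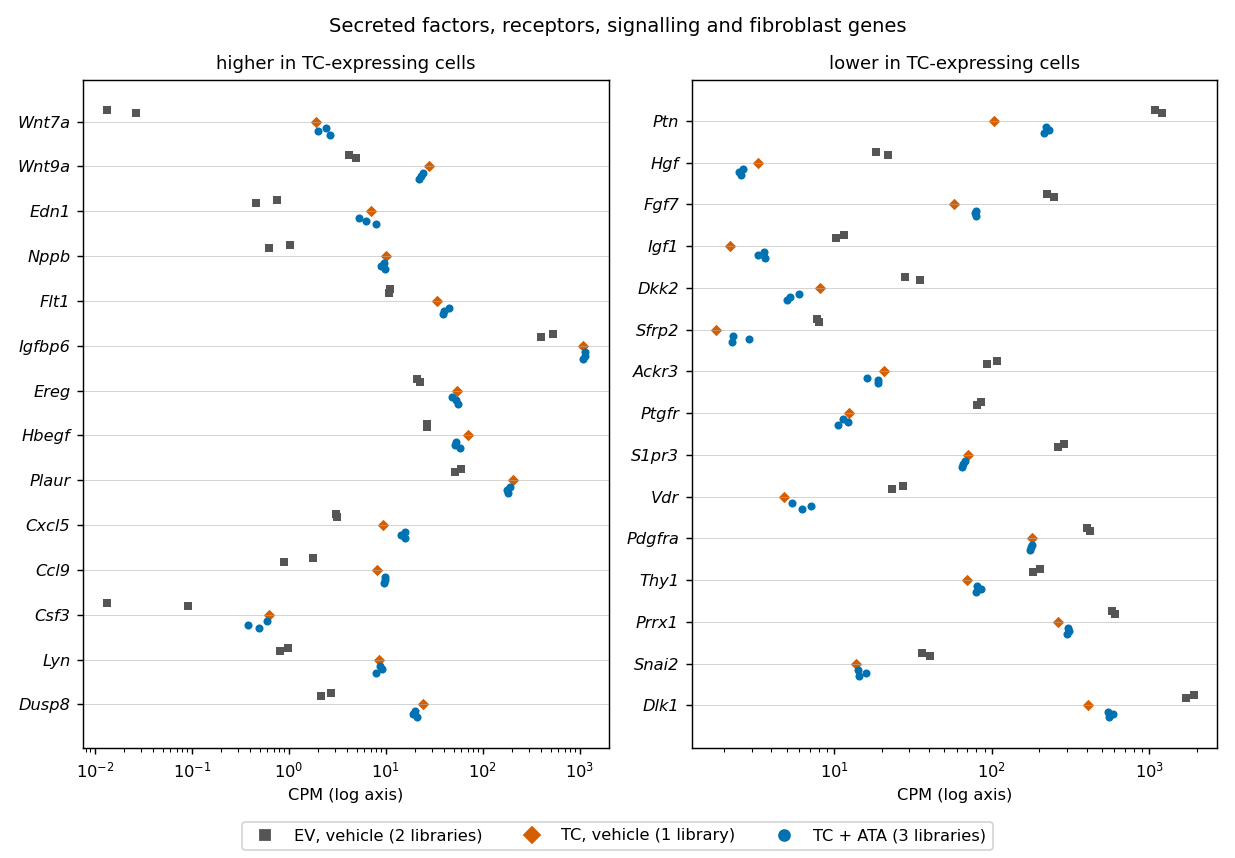
CPM (log axis) in each library for 14 genes that were higher (left) and 15 that were lower (right) in TC-expressing cells, chosen from secreted factors, receptors, signalling and fibroblast genes, with squares for EV, diamonds for TC and circles for TC + ATA. No row overlaps between EV and TC-expressing libraries, as the rule for calling a gene requires. Ptn and Dlk1 have the highest EV levels among the decreases, at 1090.2 to 1206 and 1711 to 1905 CPM.

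Several secreted growth factors of mesenchyme were lower. Ptn, the heparin-binding growth factor pleiotrophin, was read at 1090.2 and 1206 CPM in EV, 104 CPM in TC and 221, 231 and 215 CPM in TC + ATA (log2 fold change −2.57, SE 0.24, adjusted p = 1.57e-05 from edgeR), and the TC library was the lowest. Hgf, the ligand of MET, fell from 18.5 and 21.96 CPM in EV to 2.51–3.298 CPM. Fgf7, keratinocyte growth factor, fell from 223 and 247 CPM in EV to 57.5–79.8 CPM, and Igf1 fell from 11.6 and 10.3 CPM in EV to 2.17–3.65 CPM. The wider list of FGF, PDGF, VEGF, HGF and IGF signalling held 25 higher and 11 lower of 55 tested. Among its increases were Igfbp6, an IGF-II-binding protein (from 527 and 394 CPM in EV to 1086–1134 CPM), and the VEGF receptor Flt1 (from 11.03 and 10.9 CPM in EV to 33.5–45.03 CPM). Of the EGFR ligands, Ereg and Hbegf rose from 20.9 and 22.7 CPM in EV to 48.4–56.1 CPM and from 26.4 and 26.7 CPM in EV to 52.1–70.6 CPM, and Egfr itself fell from 19.01 and 18.4 CPM in EV to 8.74–11.4 CPM. The vasoactive peptides Edn1 (endothelin 1) and Nppb (natriuretic peptide B) rose from 0.747 and 0.459 CPM in EV to 5.27–7.87 CPM and from 1.03 and 0.629 CPM in EV to 8.92–10.1 CPM. Prl2c2, the secreted prolactin relative proliferin, rose from 214 and 173 CPM in EV to 1022–1419 CPM, and near-identical copies in the genome can take up some of its reads; the copy Prl2c3 rose from 11.99 and 10.1 CPM in EV to 54.7–68.05 CPM.

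WNT ligands are secreted signals for cell fate. Wnt9a was read at 4.14 and 4.98 CPM in EV, 27.9 CPM in TC and 24.4, 22.9 and 22.2 CPM in TC + ATA (log2 fold change 2.42, SE 0.13), and Wnt7a had 1 and 2 counts in EV and 133 to 185 in TC-expressing libraries, at least 43.6-fold higher. Dkk2 and Sfrp2, which block WNT receptors or bind the ligands, fell from 28.3 and 35.3 CPM in EV to 5.03–8.17 CPM and from 7.83 and 7.99 CPM in EV to 1.77–2.91 CPM. Over the whole list 11 of 38 were higher and 9 lower. The shares of all genes, here and for the next lists, were 19.0% higher and 19.9% lower. In the list of TGF-β and BMP signalling 15 of 44 were higher and 15 lower, with the type I receptor Acvrl1 rising from 0.934 and 0.590 CPM in EV to 4.78–6.19 CPM and the BMP antagonist Nbl1 from 6.51 and 5.02 CPM in EV to 25.7–30.8 CPM. The guidance list (14 higher and 17 lower of 54) included increases of the semaphorins Sema6b, Sema3c and Sema3b, with log2 fold changes of 3.08, 2.71 and 2.56. Among receptors for lipid and steroid signals, the prostaglandin F receptor Ptgfr was read at 85.96 and 81.01 CPM in EV, 12.4 CPM in TC and 11.3, 12.2 and 10.5 CPM in TC + ATA (log2 fold change −2.84, SE 0.08), the sphingosine-1-phosphate receptor S1pr3 fell from 287 and 261 CPM in EV to 64.6–70.2 CPM, and the vitamin D receptor Vdr fell from 27.3 and 23.3 CPM in EV to 4.795–7.098 CPM. Dlk1, an imprinted transmembrane relative of Notch ligands that marks undifferentiated mesenchyme, was read at 1905 and 1711 CPM in EV, 409 CPM in TC and 549, 585 and 556 CPM in TC + ATA (log2 fold change −1.78, SE 0.12).

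Lyn, a Src family kinase, rose from 0.987 and 0.813 CPM in EV to 7.91–9.101 CPM. Of 24 MAPK feedback and ETS target genes, 10 were higher and 7 lower, including dual-specificity phosphatases that inactivate MAP kinases: Dusp8 was read at 2.69 and 2.12 CPM in EV, 24.2 CPM in TC and 20.2, 19.04 and 20.7 CPM in TC + ATA (log2 fold change 3.12, SE 0.15), and Dusp4 and Dusp9 rose from 26.6 and 27.6 CPM in EV to 108–119 CPM and from 26.7 and 23.4 CPM in EV to 79.9–107 CPM. The AP-1 list had 9 higher and 9 lower of 24, with rises of Maff and Mafk (1.95 and 1.67 on the log2 scale). Rnd1, a small GTPase, and Arhgap29, a GTPase-activating protein, rose from 9.38 and 7.802 CPM in EV to 44.1–57.3 CPM and from 73.6 and 81.7 CPM in EV to 241–257 CPM, and Arhgap24 fell from 25.99 and 25.7 CPM in EV to 5.09–5.62 CPM. The P/Q-type calcium channel subunit Cacna1a rose from 17.7 and 19.3 CPM in EV to 148–172 CPM, while the L-type subunit Cacna1c fell from 41.96 and 48.8 CPM in EV to 12.3–18.6 CPM.

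Glycolysis turns sugar into pyruvate, and the pentose phosphate pathway supplies NADPH. Of 30 glycolysis and pentose phosphate genes, 16 were higher and 4 lower (2 lower without any 1 of the TC + ATA libraries), among them the kinases Hk2 (from 31.8 and 29.6 CPM in EV to 69.6–99.95 CPM), Pfkp (from 28.2 and 25.1 CPM in EV to 73.7–80.1 CPM) and Pfkfb3 (from 8.09 and 8.46 CPM in EV to 21.6–23.6 CPM), while the lactate dehydrogenase subunit Ldhb fell from 118 and 93.7 CPM in EV to 33.9–36.1 CPM. The summed level of the list was 9229 and 7339.9 CPM in EV and 11534 to 12114 CPM in the others. In the list of NRF2 targets and glutathione enzymes 17 of 34 were higher and 1 lower. The glutathione transferase Gsta4 was read at 141 and 106 CPM in EV, 496 CPM in TC and 601, 597 and 605 CPM in TC + ATA (log2 fold change 2.22, SE 0.13), Gsta3 rose from 1.17 and 0.721 CPM in EV to 11.6–18.7 CPM, and the extracellular superoxide dismutase Sod3 rose from 1.16 and 0.747 CPM in EV to 3.96–8.89 CPM. Gclm, Hmox1 and Txnrd1 rose by 1.18, 1.42 and 1.08 on the log2 scale. The cysteine-producing enzyme Cth rose from 9.35 and 9.22 CPM in EV to 58.6–78.6 CPM, alongside the fall of Cdo1, which consumes cysteine. Of 19 V-ATPase genes, 10 were higher and none lower, against 19.0% and 19.9% of all genes, with 6 higher and 1 lower without EV replicate 2 and 6 higher without TC + ATA replicate 1 or 2. Of 44 lysosomal genes, 21 were higher and 4 lower, including Grn and Hexa (1.21 and 1.15). The median log2 fold change of the lysosomal list against EV was 0.10 with vehicle and 0.37 with ATA. For the V-ATPase list it was 0.10 with vehicle and 0.25 with ATA. No EV library received ATA, and the part of ATA in these values was not tested.

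Lipid genes moved in both directions. Of 25 genes of cholesterol synthesis, 16 were lower and 2 higher, with a median log2 fold change of −0.45; the median ran from −0.54 to −0.35 under the alternative settings. The decreases were modest, as in Mvd (from 100.2 and 90.8 CPM in EV to 48.1–53.6 CPM) and Pmvk (from 43.96 and 40.1 CPM in EV to 21.9–24.7 CPM). Lpl, lipoprotein lipase, was read at 23.2 and 25.4 CPM in EV, 189 CPM in TC and 209, 209 and 198 CPM in TC + ATA (log2 fold change 3.05, SE 0.08, adjusted p = 6.16e-09 from edgeR), and its secreted inhibitor Angptl4 fell from 146 and 133 CPM in EV to 37.7–44.05 CPM. Fabp5, a fatty acid carrier, fell from 171 and 125 CPM in EV to 43.1–44.7 CPM.

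Results for protein synthesis and respiration moved with the libraries used. Of 76 cytosolic ribosomal protein genes, 28 were lower and none higher, with a median log2 fold change of −0.26. Their summed level was 96705 CPM in EV replicate 1, 69616 CPM in EV replicate 2 and 68049 to 70052 CPM in the TC-expressing libraries. Without EV replicate 1 the median was −0.015, with 9 members higher and 13 lower, and without EV replicate 2 it was −0.49, with 72 lower. Without any 1 of the TC + ATA libraries 12 or 13 were lower. The 61 nuclear-encoded genes of oxidative phosphorylation had 1 higher and 9 lower, and without EV replicate 1 they had 16 higher and 2 lower, and without EV replicate 2 they had 1 higher and 44 lower. Without the TC library or any 1 of the TC + ATA libraries 2 to 4 of them were lower. Of 16 tested mitochondrially encoded genes, 10 were higher and none lower, in libraries whose mitochondrial share also differed, as given above; mt-Co1 rose from 4364 and 5026 CPM in EV to 6253–7892 CPM. The part of library composition in these values was not tested.

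Cell cycle genes stayed near the background. Of 39 replication genes 10 were higher and 8 lower, and of 38 mitosis genes 5 were higher and 9 lower (3 higher without TC + ATA replicate 1, 5 lower without EV replicate 2), with medians of −0.01 and −0.03. Mki67, a marker of cycling cells, was read at 199 and 225 CPM in EV, 260.3 CPM in TC and 235, 219 and 217 CPM in TC + ATA and was not called. The G1 regulators Ccnd1 (cyclin D1) and Cdk6 rose from 216 and 200.4 CPM in EV to 664–813 CPM and from 28.6 and 29.96 CPM in EV to 73.1–91.1 CPM, and an opposite-strand gene overlaps 23.4% of the exonic bases of Ccnd1. The CDK inhibitor Cdkn1a was at 0.24 and was not called (adjusted p = 0.0613 from edgeR). It passed edgeR's test without the TC library (0.32, adjusted p = 0.00246), with no filter on low counts (adjusted p = 0.0414) and with at least 5 CPM in 1 library (adjusted p = 0.0424), and DESeq2's test (adjusted p = 0.0353), and over all alternatives the adjusted p ran from 0.00246 to 1.0. The survival factor Bcl2l1 and the pro-apoptotic Bid rose from 88.9 and 78.9 CPM in EV to 188–208 CPM and from 14.7 and 17.2 CPM in EV to 54.6–64.1 CPM. Of 34 genes of the ATF4 and unfolded protein responses, 14 were higher and 4 lower, including Chac1, a glutathione-degrading stress gene (from 38.7 and 39.2 CPM in EV to 124–147 CPM). Cryab, the small heat shock protein αB-crystallin, rose from 83.3 and 64.5 CPM in EV to 509.9–598 CPM, and 17.04% of its exonic bases are overlapped on the opposite strand.

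Innate immune genes moved in both directions. Of 53 interferon-stimulated genes 8 were higher and 13 lower, near the 19.0% and 19.9% of all genes. Bst2 (tetherin), which holds budding virus at the membrane, was read at 9.19 and 9.795 CPM in EV, 75.7 CPM in TC and 99.7, 97.3 and 92.6 CPM in TC + ATA (log2 fold change 3.27, SE 0.13), and the guanylate-binding protein Gbp2 fell from 4.803 and 5.05 CPM in EV to 1.09–2.02 CPM. Nlrc5, the transactivator of MHC class I genes, rose from 1.48 and 1.18 CPM in EV to 9.23–9.86 CPM, and B2m, the common chain of class I molecules, rose from 249 and 198 CPM in EV to 412–495 CPM, in a list with 5 higher and 4 lower of 21, against 19.0% and 19.9% of all genes. In that list 1 was lower without EV replicate 1 or TC + ATA replicate 1, and 2 without the TC library or TC + ATA replicate 3. Chemokines, cytokines and complement genes held 16 higher and 17 lower of 48 (10 lower without EV replicate 2). The chemokines Ccl9 and Cxcl5 rose from 1.77 and 0.892 CPM in EV to 8.12–9.86 CPM and from 3.06 and 3.12 CPM in EV to 9.36–15.9 CPM, the scavenging receptor Ackr3 fell from 107 and 92.8 CPM in EV to 16.1–20.6 CPM, and the complement regulator Cd55 fell from 15.02 and 18.4 CPM in EV to 2.64–3.01 CPM.

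HOX genes record body position in fibroblasts. In the HOX list 7 of 28 were higher and 8 lower, against 19.0% and 19.9% of all genes. Hoxa5 fell from 58.7 and 58.1 CPM in EV to 24.7–31.1 CPM, and Hoxb6 rose from 0.173 and 0.210 CPM in EV to 1.41–2.08 CPM. Foxf1, a forkhead factor of mesenchyme, rose from 3.86 and 4.09 CPM in EV to 22.3–23.6 CPM, while its paralog Foxf2 fell. Klf12 fell from 6.48 and 6.94 CPM in EV to 0.634–0.960 CPM, and Cebpd, an early adipogenic factor, fell from 104 and 91.03 CPM in EV to 19.4–26.6 CPM. Of 23 imprinted genes 2 were higher and 7 lower, and their summed level was 3778 and 3890 CPM in EV and 1808 to 2101 CPM in the others, with Dlk1 the member described above. Of 13 neural genes 4 were lower and none higher (7 lower without the TC library), against 19.9% of all genes lower, including the synaptic Snap25 (from 2.08 and 2.94 CPM in EV to 0.226–0.458 CPM).

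Other lists held called members in both directions, against 19.0% of all genes higher and 19.9% lower. In the matrix, 5 of 15 network collagens were higher and 6 lower, 9 of 27 proteoglycan and elastic fibre genes were higher and 8 lower, 7 of 22 matricellular genes were higher and 6 lower, and 14 of 33 hyaluronan and sulfation enzymes were higher and 9 lower. At the membrane, 9 of 24 cadherins and protocadherins were higher and 6 lower, 7 of 26 Notch and Hedgehog genes were higher and 5 lower, 5 of 14 EGFR family genes were higher and 5 lower, and 6 of 27 voltage-gated channel genes were higher and 9 lower. The Pcdhb protocadherins, a family taken by symbol after its values were seen, moved in 1 direction. Of 19 tested members 15 were lower (2 large) and none higher, with a median log2 fold change of −0.99. In metabolism, 13 of 31 sugar and amino acid transporters were higher and 4 lower, 8 of 36 fatty acid and triglyceride genes were higher and 13 lower, and 6 of 16 prostaglandin genes were higher and 4 lower. In growth control, 8 of 23 p53 targets were higher and 5 lower, 4 of 14 BCL2 family genes were higher and 5 lower, and 3 of 15 CDK inhibitors and D cyclins were higher and 4 lower. Among desmosome and keratin filament genes 5 of 11 were higher and 2 lower. Among regulators of transcription, 9 of 39 forkhead, SOX, GATA and KLF factors were higher and 14 lower, 4 of 18 osteogenic, chondrogenic and adipogenic regulators were higher and 5 lower, and 1 of 11 members of the ATAC histone acetyltransferase complex was higher and 4 lower. Of these counts, without EV replicate 2 the EGFR family had 3 lower, the channels 3 higher and the ATAC complex 2 higher, and without EV replicate 1 the Notch and Hedgehog list had 3 lower and the desmosome list 1 lower. Of the lists described earlier, the YAP/TAZ targets had 2 lower and the tight junction list none lower without EV replicate 1, cholesterol synthesis had 1 higher without TC + ATA replicate 1 or 2, and the imprinted genes had 1 higher without TC + ATA replicate 3. Opposite-strand genes overlap 17.7% of the exonic bases of Bid, 16.1% of Sfrp2, 15.003% of Cebpd, 12.8% of Hexa and 11.6% of Loxl3, so reads of these genes are less certain.

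Grouped by the letters of the symbol before the first digit, without a test, the families of at least 8 tested members with the largest share of large changes were Serpinb (4 of 8, all upward), Ano, Klk, Galnt and Prss. These 4 Serpinb members lie on chromosome 13 and some are close copies of each other, so their reads can be shared; Serpinb1b, for example, rose from 0.133 and 0.105 CPM in EV to 1.81–2.47 CPM. In the Galnt family of glycosyltransferases 4 of 15 fell and 1 rose by that margin. The change was spread over all chromosomes. The share of genes called higher ran from 13.01% on chromosome 17 to 23.8% on chromosome 15, and the share called lower from 15.4% on chromosome 15 to 27.4% on chromosome 17, among the nuclear chromosomes 1 to 19 and X. Running medians over 51 neighbouring genes stayed between −0.39 and 0.35.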

How the data were processed

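Poly(A) RNA from NIH3T3 cells was sequenced in 6 libraries (2 EV, 1 TC, 3 TC + ATA). The values deposited by the authors are raw counts of reads per gene, made with HISAT2 (version 2.2.1 in the submitters' processing notes) on mm10 and featureCounts. The annotation release and strand setting are not given in the sources used here, and 55401 genes were in the files. Libraries held 58471484 to 74413193 counts. The lower bounds of fold rest on the observed counts and a floor of 3 counts, and cover neither counting error nor spread between cultures.

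Genes were tested with edgeR 4.0.16 in R 4.3.3 (filterByExpr, TMM, quasi-likelihood F test, Benjamini-Hochberg adjustment over 17474 genes), with 4 TC-expressing against 2 EV libraries. A model with 3 groups gave the vehicle and ATA states separately. The test was checked on simulated data. DESeq2 1.42.0, other scalings, filters and left-out libraries were alternatives. SE is the standard error of a log2 fold change. Gene lists have no set test and are given as counts and medians beside all genes tested. Replicate numbers in the labels were not used as pairs.

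The 58 gene lists and the genes compared were chosen with earlier results of these data known. Genes are named for the following reasons: Wwtr1, Camta1, Yap1, the TEAD genes and 4 known targets; the 15 largest changes in each direction among called genes with a mean of at least 5 CPM; the 10 largest differences in level per length in each direction; up to 4 called members of each list with the largest changes and a mean of at least 1 CPM; cell type markers; and up to 5 genes per direction at the count floor. Some genes that these rules name are not reported here. Chosen after their values were seen were Cdh1, Cdkn1a, Cdsn, Col4a2, Col6a1, Col6a4, Crb3, Cryab, Cth, Cxcl5, Edn1, Fgf7, Foxf2, Gclm, Igf1, Itgb1, Krt13, Lamc1, Lyn, Mki67, Nppb, Prl2c3, S1pr3, Serpinb1b, Sfrp2, Txnrd1, Vdr.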

Additional observations from a re-analysis of the deposited data

Results flagged for a closer look

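Among the 4 TC-expressing libraries, 1 library stood far from the other 3 for some of the named genes. The vehicle library was the one that stood apart in most of them, and since it is the only TC library, treatment and library cannot be told apart. It was low for Acta2 at 619.7 CPM against 1183 to 1243 CPM, B2m at 412 CPM against 489 to 495 CPM, Ccl9 at 8.12 CPM against 9.64 to 9.86 CPM, Cyp1a1 at 2.203 CPM against 4.08 to 4.28 CPM, Fgf7 at 57.5 CPM against 78.5 to 79.8 CPM, Gsta3 at 11.6 CPM against 18.3 to 18.7 CPM, Gsta4 at 496 CPM against 597 to 605 CPM, Krt13 at 7.32 CPM against 10.7 to 11.3 CPM, Ly6a at 40.8 CPM against 97.9 to 106 CPM, Ms4a4d at 21.6 CPM against 29.5 to 29.9 CPM, Ptn at 104 CPM against 215 to 231 CPM. It was high for Crabp1 at 46.3 CPM against 25.7 to 26.7 CPM, Cth at 78.6 CPM against 58.6 to 61.7 CPM, Islr at 1.81 CPM against 1.11 to 1.22 CPM, Maff at 86.1 CPM against 67.5 to 69.3 CPM, Rnd1 at 57.3 CPM against 44.1 to 45.5 CPM, Spo11 at 8.06 CPM against 5.15 to 5.64 CPM, Txnrd1 at 1152 CPM against 975 to 1002 CPM. A TC + ATA library stood apart for Arhgap24 at 5.62 CPM against 5.09 to 5.14 CPM, Tead2 at 99.7 CPM against 95.5 to 95.9 CPM. About 1 in 20 groups of 4 libraries with the same treatment would be marked in this way by chance. These 4 mix vehicle and ATA, so that rate does not apply to them as it stands.

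Some genes had an adjusted p of at most 0.05 for TC + ATA versus TC in edgeR. The TC arm is 1 library whose spread is taken from the other groups, so treatment and that library cannot be told apart. Acta2 had log2 fold changes against EV of 0.62 with vehicle and 1.60 with ATA, a difference of 0.98 (adjusted p = 0.0345). Crabp1 had log2 fold changes against EV of −2.32 with vehicle and −3.14 with ATA, a difference of −0.82 (adjusted p = 0.0144). Cxcl5 had log2 fold changes against EV of 1.60 with vehicle and 2.31 with ATA, a difference of 0.71 (adjusted p = 0.05). Ly6a had log2 fold changes against EV of 2.04 with vehicle and 3.36 with ATA, a difference of 1.32 (adjusted p = 0.00532). Ptn had log2 fold changes against EV of −3.46 with vehicle and −2.37 with ATA, a difference of 1.10 (adjusted p = 0.00493). Smoc2 had log2 fold changes against EV of −3.20 with vehicle and −2.22 with ATA, a difference of 0.98 (adjusted p = 0.00532).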

How the results depend on the processing

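The counts of genes higher and lower were 3328 and 3483, and 511 and 188 with a log2 fold change of at least 2. Testing against a log2 fold change of 1 (glmTreat) gave 573 higher and 275 lower. With the vehicle libraries only (1 TC against 2 EV, the lone TC library being assumed to vary like the EV libraries), 1858 were higher and 1806 lower, of which 1769 and 1656 were shared with the full comparison, and 286 fell by the larger margin. Requiring at least 5 CPM in 1 library left 134 and 71 large changes. Leaving out single libraries gave 2886 to 3410 higher, 2876 to 3523 lower, 469 to 519 large increases and 162 to 203 large decreases. Scaling by library size alone moved the split to 2649 higher and 4595 lower. DESeq2 gave 3512 higher and 3334 lower. Whether replicate numbers pair the libraries cannot be decided here. Deviations from the group means of EV and TC + ATA libraries that share a number correlated at 0.01 and −0.181 over 12712 genes. With 2 EV libraries their deviations are exact opposites, and the TC library was not part of this check. A replicate block gave 2498 higher and 2325 lower genes, 436 and 179 of them by the larger margin. The sign turned for Camta1, at −0.0028 without EV replicate 2, and for Yap1, at −0.016 with library size scaling, neither of which was called, and Camta1 stood at 0.27 without EV replicate 1. The median of oxidative phosphorylation genes turned to 0.089 without EV replicate 1, of fibroblast markers to −0.31 with the vehicle libraries only, and of MAPK feedback genes to −0.045 with library size scaling; medians of the WNT, AP-1, HOX, chemokine, replication and mitosis lists and of most of the lists given only as counts also changed sign in at least 1 setting, so no direction is given for them. The causes were not tested. Relative to raw library totals, without TMM scaling, a count of 3 is 0.0403 to 0.0513 CPM by library, and differences below 3 counts were not detectable at this depth.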
